A study of Mus musculus with 6 samples.

Results

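The 10 genes described here are markers of heat-producing fat: Ucp1, Cidea, Ppargc1a, Prdm16, Dio2, Otop1, Kcnk3, Ebf2, Cox8b and Cox7a1. They were chosen by gene name, and each name matched 1 row of the deposited table, so the set holds 10 of its 57180 genes. The samples came from the inguinal white fat, which lies under the skin of the groin, of male mice labelled WT; the labels give neither strain nor age. In 3 libraries (HEP) the mice had eaten a high-fat diet with 0.5% hesperidin, a flavonoid glycoside of citrus peel, and in 3 libraries (HFD) the high-fat diet alone, for 12 weeks in both groups, so that every sample came from a mouse on a high-fat diet. The control diet named in the design was not analysed here, and the labels do not say whether each library is a separate animal, so a p-value here reflects the spread among these libraries, which may be technical. Values are TPM, the share of a gene's transcripts among all transcripts after correction for length, scaled to the same total in every library. TPM keeps no read depth, so depth is unknown and no counting interval can be given.

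Brown fat cells, and the beige cells that can arise within white depots, burn fuel in mitochondria whose inner membrane lets protons leak back, so that energy leaves as heat. UCP1 is the carrier that opens this leak. Cold and sympathetic nerves switch it on through beta-adrenergic receptors and cyclic AMP, with local thyroid hormone activation by DIO2. PRDM16 and EBF2 set the cell's identity and PPARGC1A, a coactivator, drives its mitochondrial genes. The inguinal depot is the classic site of beige cells in the mouse, and such cells are few in warm-housed or obese animals.

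The libraries differed in transcripts typical of other tissues, whose source was not tested. The summed TPM of 20 lymphocyte marker genes was 2196, 22.3 and 2340 in HEP replicates 1 to 3 and 19.96, 32.8 and 1225 in HFD replicates 1 to 3, with no marker at 0 in any library. The sum of 23 skeletal muscle genes was 2302, 19741 and 99.6 TPM in HEP and 323, 1014 and 166 TPM in HFD. Of these muscle genes 1 to 3 were listed at 0 in each HEP library and 0 to 3 in each HFD library, among them the fast myosin Myh4 in HEP replicate 3 and the slow myosin Myh7 in HEP replicate 2 and HFD replicates 1 and 2. The sum of 12 liver genes was 392.4, 4069 and 306 TPM in HEP and 2643, 326 and 461 TPM in HFD. Cyp2e1 alone had 378, 597 and 189 TPM in HEP and 474, 250 and 324 TPM in HFD. It made up most of the sum outside HEP replicate 2 and HFD replicate 1. By the mean log2(TPM + 1) of the list, HEP replicate 1 was the lowest library, at 1.46, and Fga and Cps1 were listed at 0 in it. The tissue label was met by the adipocyte genes in every library: Adipoq, which encodes adiponectin, had 2393, 3926 and 2151 TPM in HEP and 3473, 4211 and 2891 TPM in HFD.

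Ucp1 and Dio2, the genes most specific to active heat production, were close to 0 in all 6 libraries. Ucp1 had 0.05, 0.17 and 0.21 TPM in HEP replicates 1 to 3, against 0.51, 1.73 and 0.19 TPM in HFD replicates 1 to 3. HFD replicate 2 was the highest, and the groups overlapped because HFD replicate 3 lay below HEP replicate 3. Dio2, the deiodinase that makes active thyroid hormone inside the cell, had 0.07, 0.09 and 0.08 TPM in HEP and 0.03, 0.06 and 0.15 TPM in HFD. The HEP values of Dio2 lay within the range of the HFD values. Against the Adipoq values given above for the same libraries, Ucp1 was a rare transcript on either diet. Neither gene reached a mean of 1 TPM, the minimum for the main test. In a fit without that minimum, limma gave Ucp1 a log2 fold change of -0.57 ± 0.31 (SE) with a limma p of 0.11 before adjustment and an adjusted p of 0.869. The values enter as log2(TPM + 1), and the added 1 shrinks differences between values this low. Without HFD replicate 2 the log2 fold change of Ucp1 was -0.23 in that fit, and with a pseudocount of 0.1 in place of 1 it was -1.56. For Dio2 the unfiltered log2 fold change was 0.002, with an adjusted p of 1 in limma.

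The start regions of these genes are shown here because both are textbook targets of cyclic AMP signals, and those of Otop1 and Cox8b because the results below turn on them. The windows hold the 250 bases before the RefSeq start in build GRCm38.p6, where 7 of the 10 genes had an entry (not Cidea, Kcnk3 and Ebf2). Ucp1 is at chr8:83290098-83290347 (plus strand), Dio2 at chr12:90739039-90739288 (minus strand), Otop1 at chr5:38277154-38277403 (plus strand) and Cox8b at chr7:140900447-140900696 (minus strand). Capitals mark matches, on either strand, to the cyclic AMP response element (CRE) half-site TGACG and the full element TGACGTCA that contains it, the nuclear receptor half-site AGGTCA, the E-box CAGCTG that muscle regulators can bind, the TATA box TATAAA and the GC box GGGCGG.
Ucp1: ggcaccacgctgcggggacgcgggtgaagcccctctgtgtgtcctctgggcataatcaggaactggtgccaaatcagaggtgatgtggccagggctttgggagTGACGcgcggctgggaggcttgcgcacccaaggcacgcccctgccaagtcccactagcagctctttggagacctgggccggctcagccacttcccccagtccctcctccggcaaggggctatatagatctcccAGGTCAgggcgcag
Dio2: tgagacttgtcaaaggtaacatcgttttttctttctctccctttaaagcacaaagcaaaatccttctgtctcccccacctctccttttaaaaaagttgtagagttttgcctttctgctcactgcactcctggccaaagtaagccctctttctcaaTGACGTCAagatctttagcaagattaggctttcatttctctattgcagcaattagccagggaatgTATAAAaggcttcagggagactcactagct
Otop1: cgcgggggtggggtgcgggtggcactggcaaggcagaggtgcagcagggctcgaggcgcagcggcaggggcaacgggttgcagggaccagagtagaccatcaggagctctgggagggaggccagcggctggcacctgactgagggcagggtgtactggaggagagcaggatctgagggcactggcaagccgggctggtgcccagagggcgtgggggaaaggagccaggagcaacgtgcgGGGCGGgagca
Cox8b: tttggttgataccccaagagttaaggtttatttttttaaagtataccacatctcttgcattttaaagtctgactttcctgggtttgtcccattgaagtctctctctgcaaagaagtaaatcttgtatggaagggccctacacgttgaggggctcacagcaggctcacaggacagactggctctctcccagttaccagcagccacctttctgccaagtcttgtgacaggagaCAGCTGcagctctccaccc
Ucp1 had the CRE half-site 147 bases and the nuclear receptor half-site 14 bases before its start. In Dio2 the full CRE began 95 bases before the start, so that its half-sites overlap on the 2 strands, and a TATA box began 30 bases before it. Otop1 had a GC box 11 bases and Cox8b an E-box 19 bases before the start. Among all 32851 windows of this length in the RefSeq table, 17.8% held the CRE half-site, 1.55% the full CRE, 14% the nuclear receptor half-site, 13% the E-box, 12.4% the TATA box and 32.7% the GC box. The Cox7a1 window held none of these letters. A match describes the letters of the window and not a bound site.

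The other 8 genes were tested within a fit of the 15446 genes that averaged 1 TPM or more, and none passed. With limma on log2(TPM + 1) and Benjamini-Hochberg adjustment, 0 of the 8 had an adjusted p under 0.05, as did 0% of all tested genes, of which 279 had an unadjusted p under 0.05. All 8 had a negative log2 fold change, between -0.95 for Otop1 and -0.13 for Cox8b, with a median of -0.36, whereas 41.4% of all tested genes had a negative one and their median was 0.07. For Cox8b and Cox7a1 the direction depended on the scale, since their HEP mean TPM was 102% and 117.7% of the HFD mean. The 18 adipocyte markers, none of them among the 10 genes, also all had a negative log2 fold change, with a median of -0.41, and 0 of them passed. Lpl, the lipase that takes up fat from blood lipoproteins, averaged 2920 ± 419 TPM in HEP and 4365 ± 326 TPM in HFD (mean ± SD, n = 3 each). The part of adipocyte content in the differences of the 10 genes was not tested beyond the scaling that follows. In bulk tissue, fewer cells of a type and less RNA per cell cannot be told apart. When each library was scaled to the mean of the adipocyte list, Otop1 had a log2 fold change of -0.55 and Cidea of -0.14, while the other 6 genes turned positive, between 0.037 for Cox7a1 and 0.27 for Cox8b, and this scaling moved the median of all tested genes to 0.47.

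**Figure D1:**
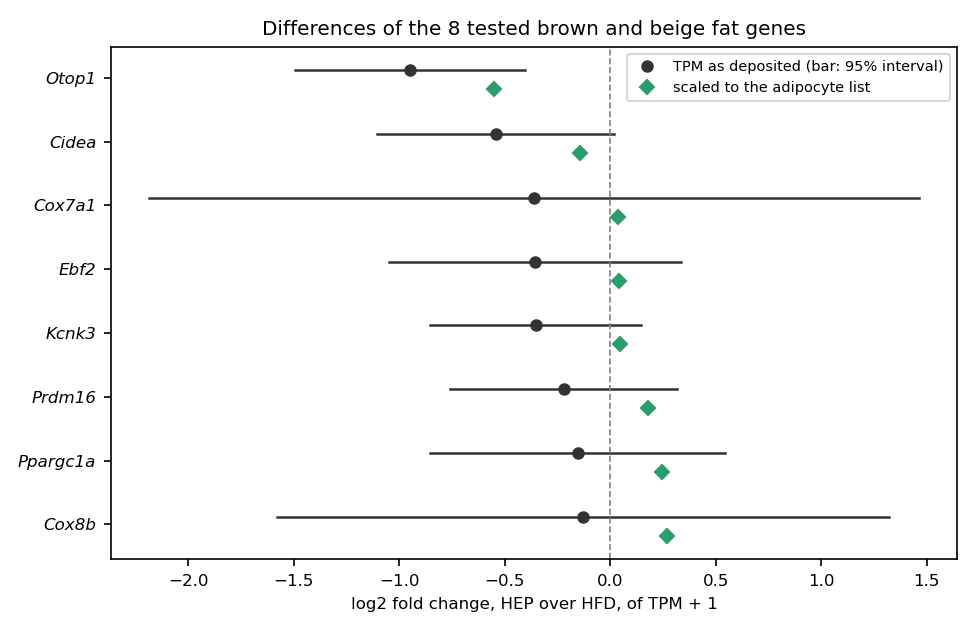
Log2 fold change of HEP over HFD on the log2(TPM + 1) scale (x axis) for the 8 tested genes (y axis). Circles with 95% limma intervals use the deposited TPM and diamonds the libraries scaled to the adipocyte list; the circles lie between -0.95 and -0.13, and only Otop1 and Cidea have diamonds left of 0.

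Otop1 showed the clearest separation of the groups. The gene encodes otopetrin, a proton channel that is found in the inner ear, in sour taste cells and in brown fat. It had 2.04, 3.11 and 2.52 TPM in HEP, against 6.22, 6.26 and 5.06 TPM in HFD. Every HEP library lay below every HFD library, and the HEP mean was 43.7% of the HFD mean (2.56 ± 0.54 TPM in HEP and 5.85 ± 0.68 TPM in HFD, mean ± SD, n = 3 each). The log2 fold change was -0.95 ± 0.22 (SE), with a 95% interval of -1.49 to -0.41, a limma p of 0.00497 before adjustment and 0.879 after it. By unadjusted p it ranked 14 of 15446. Of all tested genes 1.13% were lower in HEP at an unadjusted p under 0.05, and Otop1 was the 1 gene of the 8 that was; none of the 8 was higher at that level, beside 0.68% of all tested genes. It was also the 1 tested gene of the 8 with a HEP mean under 50% of the HFD mean, as were 1.31% of all tested genes.

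With the lymphocyte list as a covariate the log2 fold change of Otop1 was -0.83 ± 0.20 (SE), and with the lymphocyte and muscle lists together -0.74 ± 0.31 (SE), each with a limma adjusted p of 1. Scaled to the adipocyte list, Otop1 had 1.87, 1.78 and 2.40 in HEP and 2.61, 2.47 and 2.63 in HFD on the log2 scale. The HEP values lay below the HFD values, with 2.40 and 2.47 nearest to each other. In that fit the log2 fold change was -0.55 ± 0.31 (SE), with a limma p of 0.125 before adjustment and 0.524 after it. The share of all tested genes without overlap after this scaling was not counted. The related channel genes Otop2 and Otop3 were listed at 0 in all libraries but HEP replicate 2, where Otop3 had 0.11 TPM.

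Cidea was also lower in HEP without overlap, by a smaller margin. CIDEA coats lipid droplets and enlarges them, and its gene is among the first used to mark brown and beige cells. It had 8.71, 12.3 and 11.7 TPM in HEP, against 21.03, 13.5 and 14.8 TPM in HFD. The highest HEP and lowest HFD value were 12.3 and 13.5 TPM, and HFD replicate 1 stood above the rest. Otop1 and Cidea were the 2 genes of the 8 whose HEP values lay entirely below, and 3.58% of all tested genes were so; none of the 8 lay entirely above HFD, beside 1.88% of all tested genes. The HEP mean of Cidea was 66.2% of the HFD mean, and the log2 fold change was -0.54 ± 0.23 (SE), with a limma adjusted p of 0.879. With the adipocyte scaling the groups overlapped, and with lymphocyte and muscle covariates together the log2 fold change was -0.13. B430212C06Rik, listed at 2.81 to 5.05 TPM, overlaps Cidea on the opposite strand in GENCODE M21. Whether their exons overlap was not examined and the labels do not say whether strand was kept, so the values of Cidea carry that uncertainty.

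The relatives of Cidea were measured on very different scales. Cidec, the family member of white fat cells, had 1660, 2373 and 1280 TPM in HEP, against 2176, 2738 and 1864 TPM in HFD. Its groups overlapped (log2 fold change -0.38, limma adjusted p = 0.879). Cideb, the member of liver, had 0.27, 5.79 and 0.09 TPM in HEP and 4.26, 0.12 and 0.42 TPM in HFD, high in the 2 libraries with the most liver transcripts.

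**Figure D2:**
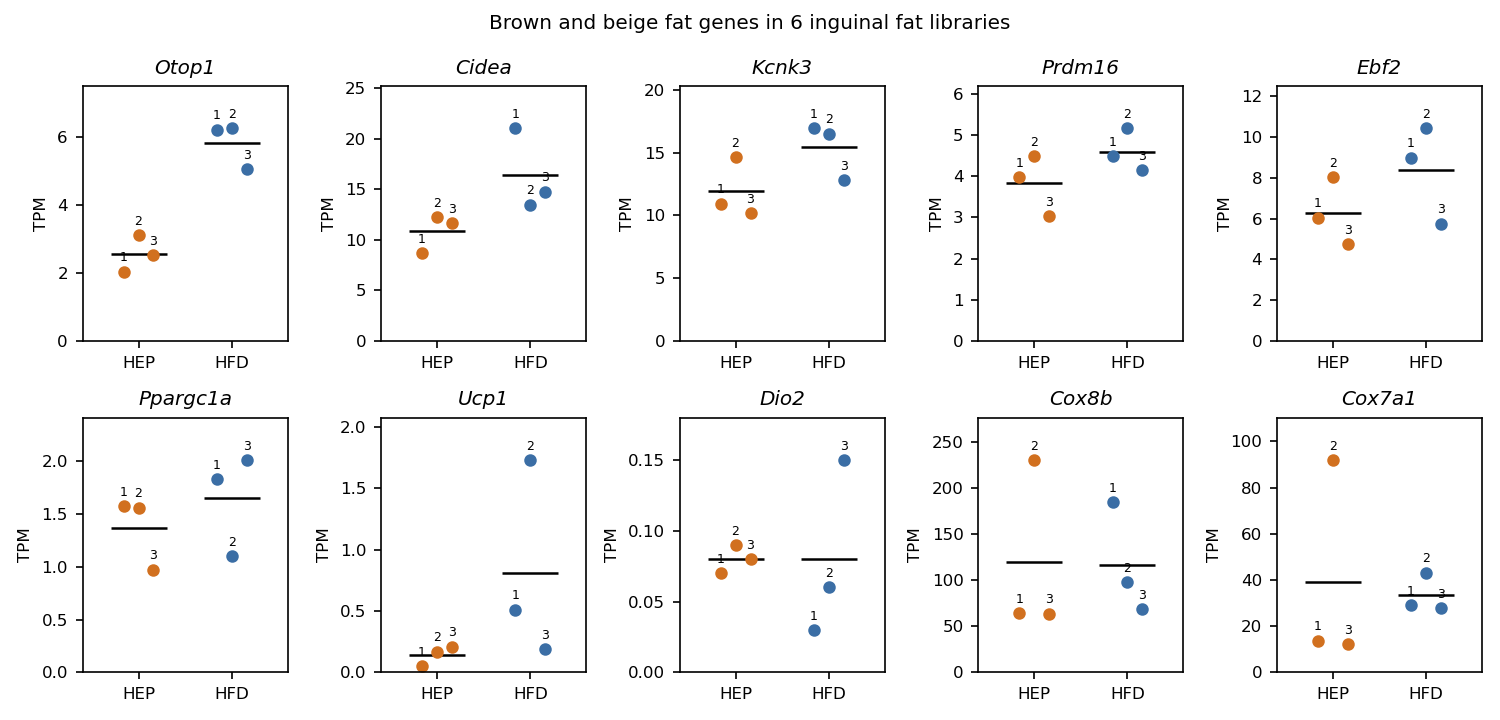
TPM (y axis, linear and starting at 0) of the 10 genes in each of the 3 HEP and 3 HFD libraries (points, numbered by replicate; bars are group means). HEP lies below HFD without overlap for Otop1 and Cidea, Ucp1 and Dio2 stay under 2 TPM, and HEP replicate 2 carries the highest Cox8b and Cox7a1.

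The genes of cell identity and of mitochondrial control had low to moderate levels with overlapping groups. Prdm16, the zinc finger factor that directs precursors to the brown fate, had 3.97, 4.48 and 3.03 TPM in HEP and 4.48, 5.16 and 4.14 TPM in HFD. Its 6 values spanned 1.70-fold, and HEP replicate 2 equalled HFD replicate 1 (log2 fold change -0.22 ± 0.22, SE, limma adjusted p = 0.879). Mecom, which encodes PRDM3, the close relative of PRDM16, had 7.26, 7.26 and 6.41 TPM in HEP and 6.80, 8.80 and 8.59 TPM in HFD, also with overlap. Ebf2, the factor that opens brown fat enhancers and marks beige precursors, had 6.04, 8.04 and 4.75 TPM in HEP and 8.99, 10.4 and 5.74 TPM in HFD. In both groups replicate 3 was lowest and replicate 2 highest (log2 fold change -0.36 ± 0.29, SE, limma adjusted p = 0.879). Of its relatives, Ebf1, which also acts in B cells and fat cells, averaged 40.3 ± 3.72 TPM in HEP and 39.2 ± 4.24 TPM in HFD. Ebf3 averaged 12.9 ± 2.85 TPM in HEP and 16.8 ± 1.94 TPM in HFD (mean ± SD, n = 3 each), and neither passed.

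Ppargc1a, whose product PGC-1alpha coactivates mitochondrial and thermogenic genes, had 1.57, 1.56 and 0.97 TPM in HEP and 1.83, 1.10 and 2.01 TPM in HFD. The groups overlapped throughout (log2 fold change -0.15 ± 0.29, SE, limma adjusted p = 0.898). Ppargc1b, its relative, had 1.04, 1.00 and 1.10 TPM in HEP and 0.86, 0.46 and 1.07 TPM in HFD, under the minimum for the test. Kcnk3, which encodes the potassium channel TASK-1, described in brown fat as a brake on heat production, had 10.9, 14.6 and 10.2 TPM in HEP and 16.9, 16.5 and 12.8 TPM in HFD. HEP replicate 2 lay above HFD replicate 3, so the groups overlapped (log2 fold change -0.35 ± 0.21, SE, limma adjusted p = 0.879). Kcnk9, which encodes a related channel, was listed at 0 in all 6 libraries.

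Kcnk3, Prdm16, Ebf2, Cox8b and Cox7a1 each had lower TPM in all of HEP replicates 1 and 3 and HFD replicate 3, the 3 libraries rich in lymphocyte transcripts, than in any of the other 3 libraries. Of the 3 rich libraries 2 are HEP and 1 is HFD. With the lymphocyte list as a covariate the log2 fold change was -0.19 ± 0.15 for Kcnk3, -0.12 ± 0.21 for Prdm16 and -0.12 ± 0.20 for Ebf2 (SE; limma adjusted p = 1 for each). Ucp1, Dio2, Otop1, Cidea and Ppargc1a did not divide the libraries in this way. The division is not particular to these genes. Adipoq, at 2393, 2151 and 2891 TPM in HEP replicates 1 and 3 and HFD replicate 3, was also lower there than in any other library. The share of all tested genes that divided so was not counted.

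Cox8b and Cox7a1 were the most abundant and the most uneven of the tested genes. Both encode subunit forms of cytochrome c oxidase, complex IV of the respiratory chain, that are used in heart, skeletal muscle and brown fat in place of the widespread forms COX8A and COX7A2. Cox8b had 64.1, 230.0 and 63.5 TPM in HEP, against 185, 97.8 and 68.2 TPM in HFD. HEP replicate 2 and HFD replicate 1 were the highest, and the other 4 libraries lay between 63.5 and 97.8 TPM. The log2 fold change was -0.13 ± 0.60 (SE), with a limma adjusted p of 0.961. Cox7a1 had 13.7, 91.9 and 12.2 TPM in HEP, against 29.1, 43.1 and 27.8 TPM in HFD. Here HEP replicate 2 was the highest of all and the other HEP libraries were the 2 lowest, a spread of 7.51-fold over the 6 libraries. The log2 fold change was -0.36 ± 0.75 (SE), with a limma adjusted p of 0.911.

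HEP replicate 2, highest for both genes, was also highest in muscle and liver transcripts. Tnnt3, a troponin of fast muscle fibres, had 410, 3601 and 0.57 TPM in HEP and 12.2, 155 and 10.7 TPM in HFD. HFD replicate 1, second for Cox8b, was second in liver transcripts, while its muscle transcripts were below those of HEP replicate 1 and HFD replicate 2. Alb, the serum albumin gene, had 9.20, 1024 and 39.3 TPM in HEP and 664, 27.5 and 48.8 TPM in HFD. Without HEP replicate 2, Cox7a1 had 13.7 and 12.2 TPM in HEP, below all 3 HFD values. Its log2 fold change was then -1.27, with a limma p of 0.00224 before adjustment and 0.207 after it, in a fit where 3683 of 15446 genes had an unadjusted p under 0.05. That of Cox8b was -0.74 (adjusted p = 0.307 in limma). Without both HEP replicate 2 and HFD replicate 1, Cox7a1 had -1.36 and Cox8b -0.35, with limma adjusted p-values of 0.382 and 0.426. The direction turned when another HEP library was left out: leaving out HEP replicate 1 gave 0.057 for Cox7a1 and 0.17 for Cox8b, and leaving out HEP replicate 3 gave 0.13 for Cox7a1 and 0.18 for Cox8b. Cox8b also had 0.26 when HFD replicate 1 alone was left out. It also turned with the lymphocyte list as a covariate, to 0.30 for Cox7a1 and 0.46 for Cox8b. With the muscle list as a covariate Cox7a1 had -1.06 ± 0.52 and Cox8b -0.53 ± 0.57 (SE). With the liver list as a covariate Cox7a1 had -0.26 ± 0.60 and Cox8b -0.017 ± 0.26 (SE). This covariate, like leaving out HEP replicate 2 with HFD replicate 1, was chosen after the high Cox8b values of these libraries were seen. The cause of the spread was not tested. Sample quality weights gave -1.23 for Cox7a1 and -0.67 for Cox8b, with limma adjusted p-values of 0.12 and 0.255.

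**Figure D3:**
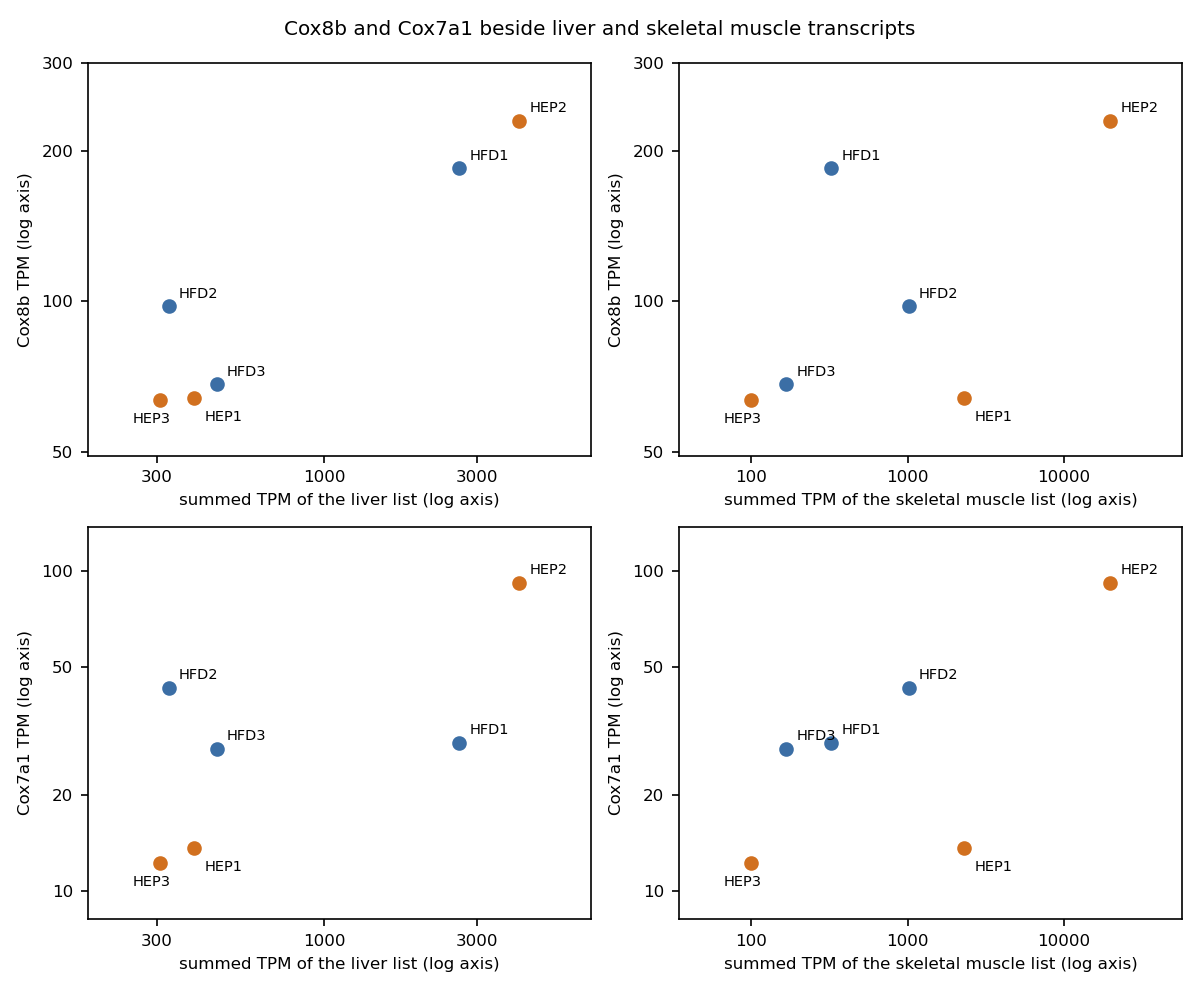
TPM of Cox8b (top) and Cox7a1 (bottom) on a log y axis against the summed TPM of the liver list (left) and the skeletal muscle list (right) on a log x axis, 1 point per library (HEP orange, HFD blue). Outside HEP replicate 2 and HFD replicate 1, Cyp2e1 makes up most of the liver sum. Cox8b is highest in the 2 libraries with the most liver transcripts, HEP replicate 2 and HFD replicate 1; Cox7a1 is highest in HEP replicate 2, which had 19741 TPM of muscle list genes.

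Set against their widespread counterparts in the same library, Cox7a1 and Cox8b overlapped between the diets. Cox7a1 amounted to 5.28%, 22.8% and 4.51% of the TPM of Cox7a2 in HEP, against 7.88%, 11.2% and 7.997% in HFD. The mean log2 ratio was -3.62 ± 1.29 in HEP and -3.49 ± 0.29 in HFD (SD, n = 3 each; two-sided exact permutation p = 1, adjusted p = 1). Cox8b amounted to 14.3%, 33.3% and 15.3% of Cox8a in HEP, against 28.3%, 13.3% and 10.8% in HFD. Its mean log2 ratio was -2.37 ± 0.68 in HEP and -2.65 ± 0.73 in HFD (two-sided exact permutation p = 0.5, adjusted p = 0.75). Cox6a2, the heart and muscle form of a further subunit, was added as a comparison. It amounted to 1.59%, 13.8% and 0.918% of Cox6a1 in HEP, against 0.770% and 0.227% in HFD replicates 2 and 3, and was listed at 0 in HFD replicate 1. All 3 HEP ratios lay above the HFD ratios (two-sided exact permutation p = 0.1, adjusted p = 0.3 over the 3 ratios), and 0.1 is the smallest p that 3 samples against 3 can give. The TPM of Cox6a2 itself overlapped, at 6.15, 84.5 and 3.22 in HEP replicates 1 to 3 and 4.61 and 1.22 in HFD replicates 2 and 3.

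The widespread forms were far more abundant and more even. Cox8a averaged 519 ± 151 TPM in HEP and 673 ± 54.5 TPM in HFD, and Cox7a2 averaged 311 ± 80.1 TPM in HEP and 367 ± 18.6 TPM in HFD (mean ± SD, n = 3 each). Cox6a1 averaged 450 ± 142 TPM in HEP and 565.0 ± 31.2 TPM in HFD. Cox7a2l, a relative that helps to join respiratory complexes, averaged 263 ± 64.9 TPM in HEP and 203 ± 44.4 TPM in HFD. All 4 had overlapping groups and a limma adjusted p of 0.879. In the 3 lymphocyte-rich libraries Cox8a, Cox7a2 and Cox6a1 were each lower, and Cox7a2l higher, than in any other library.

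**Figure D4:**
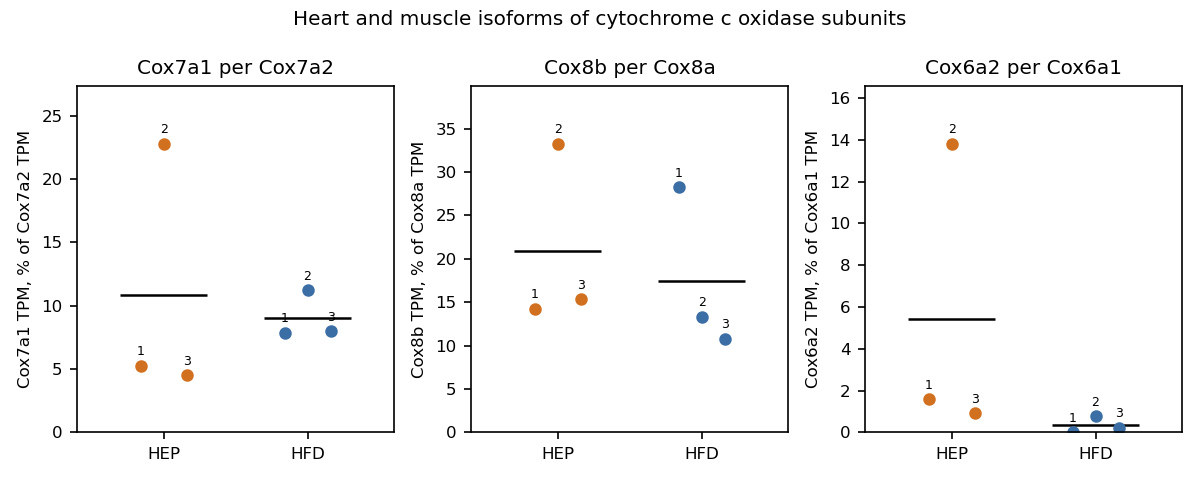
TPM of the heart and muscle form as a percentage of the widespread form of the same cytochrome c oxidase subunit (y axes, linear from 0) in the 3 HEP and 3 HFD libraries (points, numbered by replicate; bars are group means). HEP replicate 2 is highest in all 3 panels, with 22.8% for Cox7a1, 33.3% for Cox8b and 13.8% for Cox6a2.

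By mean TPM the order of levels in HEP ran from Cox8b, at 119 TPM, through Cox7a1, Kcnk3, Cidea, Ebf2, Prdm16, Otop1, Ppargc1a and Ucp1 to Dio2, at 0.080 TPM. In HFD it was the same but for 2 pairs of neighbours. Cidea and Kcnk3 had 10.9 and 11.9 TPM in HEP and 16.4 and 15.4 TPM in HFD, and their values overlapped in each group. Otop1 stood above Prdm16 in HFD, at 5.85 and 4.59 TPM, and below it in HEP, at 2.56 and 3.83 TPM. In HFD the ranges of these genes overlapped across libraries, since HFD replicate 3 had 5.06 TPM of Otop1 and HFD replicate 2 had 5.16 TPM of Prdm16, and so did their ranges in HEP. Within a library, Otop1 was above Prdm16 in every HFD library and below it in every HEP library. Among the other neighbours, Ebf2 overlapped neither Cidea nor Prdm16 in HEP. The range of Cox8b lay entirely above that of Cox7a1 in HFD but not in HEP, while within every library Cox8b was above Cox7a1.

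The other uncoupling proteins outweighed Ucp1 in this depot. Ucp2, which is widely expressed and high in immune cells, had 352, 170 and 346 TPM in HEP and 101, 242 and 245 TPM in HFD, with overlap (log2 fold change 0.59, limma adjusted p = 0.879). It was highest in HEP replicates 1 and 3, the libraries with the most lymphocyte transcripts, whose part in it was not tested. Ucp3, the muscle member, had 19.2, 33.4 and 12.9 TPM in HEP and 25.5, 16.7 and 16.9 TPM in HFD. Of the other deiodinases, Dio1 had 4.41 TPM in HEP replicate 2 and 2.88 TPM in HFD replicate 1, the libraries rich in liver transcripts, and 0.04 to 0.14 TPM elsewhere. Dio3 had 0.05 TPM in HEP replicate 2 and was listed at 0 in the other libraries.

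Genes near the 10 in the pathway gave no uniform direction. Of 23 other brown and beige markers, 18 were tested, 0 passed, and 9 had a positive and 9 a negative log2 fold change, with a median of 0.006. The most positive, Epsti1 (1.55) and Tnfrsf9 (0.94), were higher in each of the 3 lymphocyte-rich libraries than in any other. Next came Fabp3 (0.78), highest at 30.3 TPM in HEP replicate 2, the library with the most muscle transcripts. The part of other tissues in this split was not tested. Lhx8, a homeobox gene of classical brown fat, had 3.69, 3.86 and 2.98 TPM in HEP, against 6.79, 4.68 and 5.01 TPM in HFD. It lay entirely below HFD, with a log2 fold change of -0.52 and a limma adjusted p of 0.879. Slc36a2, an amino acid transporter of the fat cell surface, averaged 70.9 ± 15.0 TPM in HEP and 94.2 ± 14.6 TPM in HFD, and was lower in each of the 3 lymphocyte-rich libraries than in any other. Tmem26, a beige marker, had 2.10, 0.40 and 2.70 TPM in HEP and 0.56, 0.34 and 1.37 TPM in HFD, high in the 3 libraries rich in lymphocyte genes, whose part in it was not tested.

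Upstream regulators were likewise without a call. Of 21 genes listed as activators of the heat programme, 17 were tested, 0 passed, 12 were positive and 5 negative, with a median log2 fold change of 0.16. Plac8, a regulator of brown fat differentiation, averaged 81.7 ± 35.0 TPM in HEP and 41.9 ± 13.1 TPM in HFD, and Tfam, the factor that maintains mitochondrial DNA, 48.0 ± 17.3 TPM in HEP and 34.7 ± 1.85 TPM in HFD. Both were higher in each of the 3 libraries rich in lymphocyte transcripts than in any other, and the part of lymphocyte content in them was not tested. Thra, a thyroid hormone receptor, averaged 38.8 ± 3.87 TPM in HEP and 48.1 ± 5.92 TPM in HFD, without overlap. Of the 8 repressors, all tested, 0 passed and 6 were negative, with a median of -0.10. Zfp423, which holds fat cells in the white state, averaged 13.3 ± 2.17 TPM in HEP and 19.0 ± 4.68 TPM in HFD, and was lower in each of the 3 lymphocyte-rich libraries than in any other. The retinoblastoma gene Rb1 averaged 27.7 ± 2.34 TPM in HEP and 32.9 ± 3.13 TPM in HFD, and Ncor1, a corepressor, 72.3 ± 20.6 TPM in HEP and 59.2 ± 3.25 TPM in HFD (mean ± SD, n = 3 each throughout).

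Of 12 genes of adrenergic signalling, 10 were tested, 0 passed and 7 were negative, with a median log2 fold change of -0.20. Adra1a, an alpha-adrenergic receptor, averaged 5.11 ± 0.91 TPM in HEP and 7.47 ± 1.30 TPM in HFD. Prkar2b, a regulatory subunit of protein kinase A, averaged 369 ± 52.0 TPM in HEP and 464 ± 46.4 TPM in HFD. Both were lower in each of the 3 lymphocyte-rich libraries than in any other. Th and Dbh, the enzymes of noradrenaline synthesis in sympathetic neurons, were listed at 0 in all 6 libraries. The nerve supply of the depot was not measured. Of 8 factors secreted by brown fat, 5 were tested, 0 passed and 4 were negative, with a median of -0.20. Nrg4, a secreted growth factor, averaged 53.0 ± 18.8 TPM in HEP and 46.3 ± 6.91 TPM in HFD, Metrnl 17.6 ± 8.30 TPM in HEP and 24.9 ± 11.4 TPM in HFD, and the chemokine gene Cxcl14 22.1 ± 6.63 TPM in HEP and 30.3 ± 17.8 TPM in HFD.

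**Figure D5:**
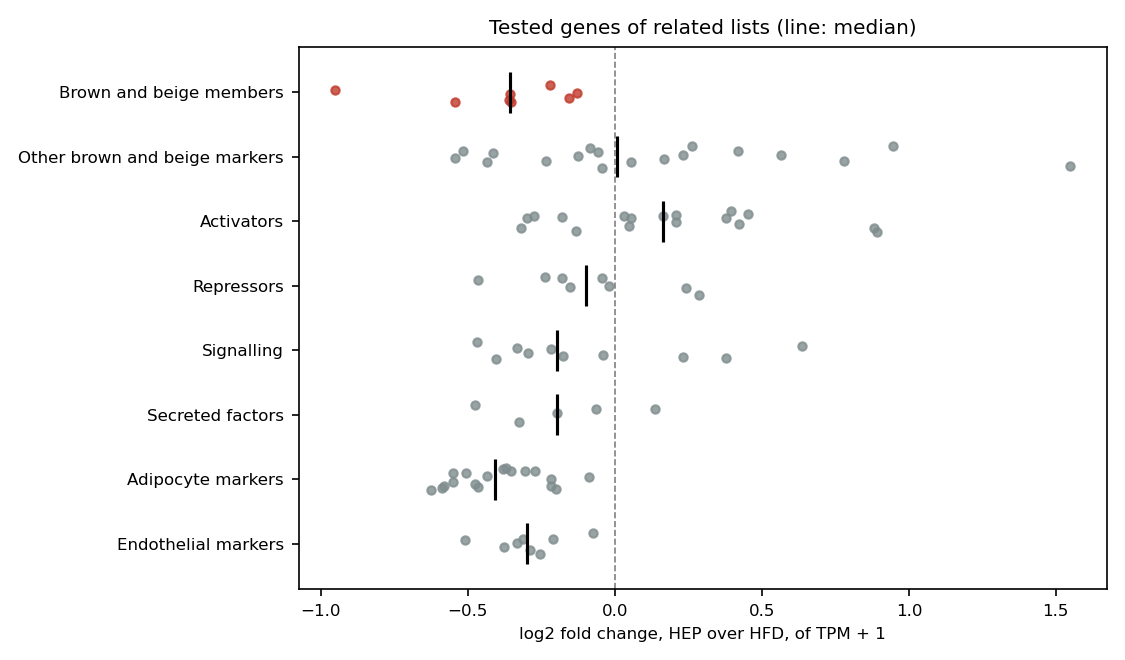
Log2 fold change of HEP over HFD on the log2(TPM + 1) scale (x axis) for each tested gene (points) of the 10 brown and beige fat genes and of 7 further lists (y axis); black lines are medians. The 8 tested brown and beige fat genes have a median of -0.36, beside -0.41 for the adipocyte markers, -0.30 for the endothelial markers and 0.006 for the other brown and beige markers. The most positive of these other markers, Epsti1 and Tnfrsf9, were highest in the lymphocyte-rich libraries.

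Marker lists of other cell types were read from the same fit, which cannot separate cell numbers from RNA per cell. The 8 endothelial genes were all negative, with a median log2 fold change of -0.30, and 4 of them lay entirely below HFD, where 41.4% of all tested genes were negative and 3.58% lay entirely below. Among them, Cldn5 averaged 143 ± 22.0 TPM in HEP and 186 ± 19.3 TPM in HFD. The 10 progenitor genes had 8 negative members and a median of -0.39, and the 8 macrophage genes 4 negative members and a median of -0.001. Medians were 2.18 for the lymphocyte list, 2.29 for the muscle list and -0.39 for the liver list. None of these genes passed the test.

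Profiles most like those of 4 of the genes were found by the mean absolute difference of log2(TPM + 1) values, centred on each gene's own mean, over the 6 libraries. Nearest to Ucp1 were Tubb2a, Cds1 and Mmp3, at 0.12, 0.14 and 0.15 log2 units. The added 1 shrinks differences at values as low as those of Ucp1, so this nearness is not a like fold range. Ucp1 spanned 34.6-fold in TPM, while Tubb2a lay between 23.1 and 46.0 TPM. Among those nearest to Cidea were Pigbos1 and Fasn, at 0.11 and 0.12, and nearest to Cox7a1 were Mlip, Usp2 and Rtn2, at 0.24, 0.28 and 0.29. Among those nearest to Cox8b were Creb3l3 and Klkb1, at 0.085 and 0.12. Creb3l3, which encodes a transcription factor of liver and intestine, had 0.83, 4.92 and 0.51 TPM in HEP and 3.33, 1.55 and 0.89 TPM in HFD. That it was high in the same 2 libraries as Cox8b follows from its choice by nearness and is no separate result.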

How the data were processed

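RNA was measured in 6 libraries, 3 HEP and 3 HFD, grouped by title and carrying 1 batch label. Per the labels' protocols, TRIzol RNA went into TruSeq libraries. The deposited table holds TPM per gene, made by the authors, and mean TPM per group, equal to the means of the sample columns within 3.3e-05. The tools named, per the submitters' processing notes, are HISAT2, fastp, StringTie, RSEM and DESeq2; their versions and roles, the genome build and the strandedness were not stated there. TPM shares a fixed total, so abundant transcripts in 1 library lower its other values. The 15446 of 57180 genes averaging 1 TPM or more were fitted as log2(TPM + 1), with limma 3.58.1 under R 4.3.3, a variance trend on intensity, two-sided tests, Benjamini-Hochberg adjustment and a threshold of 0.05. Isoform ratios were log2 ratios of TPM, with 1 added for Cox6a2 and Cox6a1, tested by exact permutation. The fit was tested on simulated data with noise drawn separately for each gene. Differences that many genes share between libraries, as in the lymphocyte list, were not part of that simulation. Overlapping genes were looked up in GENCODE M21 by gene ID. The genes and lists were chosen with earlier results of these data known. Named genes were all 10 genes and their relatives, up to 3 with the smallest p of each other list, the 3 most abundant markers, and the 3 nearest profiles of 4 genes. Of the genes this rule names, some are not reported here. Examples beyond this rule (Myh4, Myh7, Fga, Cps1, Epsti1, Tnfrsf9 and Fabp3) were chosen after their values were seen. Alternatives were other pseudocounts, filters, scalings, weights, covariates, a replicate block and leaving out libraries.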

Additional observations from a re-analysis of the deposited data

How the results depend on the processing

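None of the 10 genes passed under any of the 21 alternatives to the main fit in which it was tested; Ucp1 and Dio2 were tested only in fits without the minimum of 1 TPM. Of the alternatives, the liver covariate and leaving out HEP replicate 2 with HFD replicate 1 were chosen after seeing the data. Among all genes, 0 passed in the main fit, where 279 had an unadjusted limma p under 0.05, and 0 to 1 when 1 library was left out. The 1 call came without HEP replicate 2 and was none of the 10 genes. Genes with an unadjusted p under 0.05 ran from 121 without HFD replicate 2 to 3683 without HEP replicate 2, and to 5079 with sample quality weights. A minimum of 5 TPM gave no value for Otop1, Prdm16 and Ppargc1a. Otop1 and Cidea kept their direction throughout, Otop1 between -1.18 (pseudocount 0.1) and -0.55 (adipocyte scaling) and Cidea between -0.70 (quantile normalization) and -0.13 (lymphocyte and muscle covariates). The lowest adjusted p of Otop1 was 0.12, with sample quality weights. Adipocyte scaling turned Ppargc1a to 0.24, Prdm16 to 0.18, Kcnk3 to 0.046, Ebf2 to 0.042, Cox8b to 0.27 and Cox7a1 to 0.037. By its construction this setting shifts all genes by the same amount. The median of all tested genes was 0.47 after it, beside 0.07 in the main fit. The lymphocyte covariate turned Cox8b to 0.46 and Cox7a1 to 0.30, and lymphocyte and muscle covariates turned Cox8b to 0.53; the cause was not tested. Leaving out 1 library moved Cox8b between -0.74 and 0.26, Cox7a1 between -1.27 and 0.13 and, in the unfiltered fit, Dio2 between -0.032 and 0.048, with -0.005 without HEP replicate 2 and -0.011 without HFD replicate 2. It moved the log2 difference of the ratio Cox7a1/Cox7a2 between -0.87 and 0.30, of Cox8b/Cox8a between -0.11 and 0.69 and of Cox6a2/Cox6a1 between 1.86 and 3.63. Deviations of same-numbered libraries from their group means correlated at -0.36, 0.37 and 0.65 for replicates 1, 2 and 3. Only HEP replicate 3 correlated best with the HFD library of its own number. These correlations cannot settle whether the replicate numbers pair the libraries. With the replicate block 0 genes passed, 576 had an unadjusted p under 0.05, and Otop1 had a log2 fold change of -0.95 (limma adjusted p = 0.753). Depth is unknown in TPM, so values under 1 TPM, as for Ucp1 and Dio2, cannot be given a counting error.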
